A study of Homo sapiens with 5 samples.

Results

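The genes examined were the nuclear-encoded subunits of the mitochondrial respiratory chain in HL60, a human line established from promyelocytic leukaemia. They were picked by symbol among the protein-coding genes of GENCODE release 29: NDUF genes with a subunit letter A, B, C, S or V and a number, SDHA to SDHD, symbols that start with UQCR, COX4 to COX8 or ATP5, and CYC1. The rule found 89 of the 51055 genes counted, of which 35 belong to complex I, 4 to complex II, 10 to complex III, 19 to complex IV and 21 to complex V. NDUFA4 and its paralogue NDUFA4L2 were placed in complex IV, where the NDUFA4 protein is now known to sit, and 3 proteins that are no structural subunits came in with the rule (COX7A2L, a factor of respiratory supercomplexes; ATP5IF1, the inhibitor of complex V; and ATP5S, a factor B-like protein). NDUFA7 and the readthrough gene NDUFC2-KCTD14 also match but were not analysed here.

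The 5 libraries formed 3 groups. ZIP libraries (n = 2) came from cells with a lentivector whose hairpin makes an RNA antisense to miR-378a-3p, SCR libraries (n = 2) from cells with a control lentivector that the labels describe both as scramble and as empty, and the UNT library (n = 1) from untransduced cells. Both vectors carry green fluorescent protein, and both groups were spin-transduced with polybrene (8 µg/mL; multiplicity of infection 20) and then held under puromycin (2 µg/mL) between day 3 and day 8. Virus, polybrene, drug and selection therefore separate both transduced groups from the UNT library together and cannot be told apart here.

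Libraries held 24406580 to 30925067 gene counts, and replicates were close: ZIP 1 and ZIP 2 differed with a mean chi-square per gene of 1.88, SCR 1 and SCR 2 with 2.65, and libraries of different groups with 88.1 to 151. The labels do not say that the replicates are separate cultures, so p-values measure only the spread between these libraries, and the tests assume that the UNT library varies as much as the transduced ones. The locus of the targeted microRNA, MIR378A, held 2 counts in ZIP 2 and 0 in each other library, so the knockdown could not be checked from it. All 5 promyelocyte marker genes were measured, with summed levels of 22570 and 21910 CPM (counts scaled to library size, with factors from the trimmed mean of M values) in ZIP, 11570 in each SCR library and 24320 in UNT. The 7 monocyte markers summed to 1451 and 1455 CPM in ZIP, 1321 and 1331 CPM in SCR and 350 CPM in UNT. Most of that sum was LYZ, which encodes lysozyme, with 1392 and 1394 CPM in ZIP, 1115 and 1120 CPM in SCR and 323 CPM in UNT. The other 6 monocyte markers summed to 58.6 and 60.8 CPM in ZIP, 206 and 211 CPM in SCR and 27.0 CPM in UNT. Of 6 erythroid markers 4 had no count in any library and the 6 summed to 1.40 to 1.89 CPM, and of 6 lymphoid markers 1 had none and the 6 summed to 13.9 to 24.8 CPM.

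Complex I takes electrons from NADH and complex II takes them from succinate, both hand them to ubiquinone, complex III passes them to cytochrome c, and complex IV passes them to oxygen. Complexes I, III and IV pump protons as they do so, and complex V, the ATP synthase, uses the proton gradient to make ATP. Mitochondrial DNA encodes a few core subunits of complexes I, III, IV and V, while every subunit of complex II and all the others are made from nuclear genes.

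Most of these genes were highest in untransduced cells, and the order seen most often placed the ZIP cells between SCR, the lowest, and UNT. Their summed level was 12160 and 11900 CPM in ZIP and 11440 CPM in each SCR library, against 14170 CPM in UNT. As unscaled shares of all counts the sums were 1.2% and 1.18% in ZIP, 1.18% in each SCR library and 1.36% in UNT. The difference between ZIP and SCR in the sum thus depends on the scaling. Of 82 genes tested in the fit with UNT, 62 (75.6%) were higher in UNT than in all 4 transduced libraries, as were 33.4% of all genes tested and 36.6% of genes with a mean of at least 30 CPM. For 40 genes (48.8%) the order was UNT above both ZIP libraries above both SCR libraries with no overlap, against 15.1% of all genes tested and 21.3% of genes with a mean of at least 30 CPM. For 15 genes (18.3%) the SCR libraries stood between UNT and ZIP, against 9.1% of all genes tested and 10.0% of those at 30 CPM and over. Because these are bulk libraries, fewer cells of a type and less RNA per cell cannot be told apart.

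In ZIP against UNT, 2 of 82 genes rose and 64 fell at an adjusted p under 0.05 (edgeR quasi-likelihood test, Benjamini-Hochberg over 15832 genes), where 28.5% of all genes tested rose and 29.7% fell (39.4% and 37.9% of genes with a mean of at least 30 CPM). In SCR against UNT, 6 rose and 64 fell, where 32.7% of all genes tested rose and 32.2% fell (36.6% and 45.0% at 30 CPM and over). The median log2 fold change of the 82 genes was -0.28 in ZIP and -0.36 in SCR over UNT, against 0.00 and 0.02 over all genes tested. Both comparisons share the UNT library, and ZIP over SCR shares the SCR libraries with SCR over UNT, so their resemblance carries no weight of its own. By at least 1.5-fold, 5 genes fell and 1 rose in ZIP over UNT (6.10% and 1.22%, all genes tested 11.4% and 13.8%). In SCR over UNT 15 fell and 2 rose (18.3% and 2.44%, all genes tested 13.3% and 20.2%). Among 6201 genes with a mean of at least 30 CPM, 363 fell and 599 rose by that much in ZIP over UNT. The 78 respiratory genes at that level had 4 and 1. For SCR over UNT these counts were 655 and 768, beside 15 and 1.

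Transcript length moved with these falls. The genes have short transcripts, with a median of 750 bases against 2533 bases for tested protein-coding genes. Among genes with transcripts under 750 bases the median log2 fold change in ZIP over UNT was -0.33 for the 39 respiratory genes and -0.38 for 198 other coding genes with a mean of at least 30 CPM, and in SCR over UNT it was -0.39 and -0.42. In the class from 750 to under 1500 bases the medians were -0.24 and -0.23 in ZIP over UNT, and -0.27 and -0.30 in SCR over UNT. From 1500 to under 3000 bases the 13 respiratory genes had a median of -0.12 and the other genes of -0.06 in ZIP over UNT, and -0.20 and -0.10 in SCR over UNT. At 3000 bases and over the 3 respiratory genes had -0.08 and the other genes 0.22 in ZIP over UNT, and -0.33 and 0.13 in SCR over UNT. Against UNT, the respiratory genes thus stood close to other well-expressed genes of like length in both short classes. In both long classes, with 16 genes in all, they stood lower. In ZIP over SCR the respiratory medians lay above those of the other genes in every class. They were 0.06 and -0.03 under 750 bases, and 0.07 and 0.05 from 750 to under 1500. The longer classes had 0.12 and 0.04, and 0.19 and 0.09 at 3000 bases and over. The part of transcript length in the falls was not tested.

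**Figure D1:**
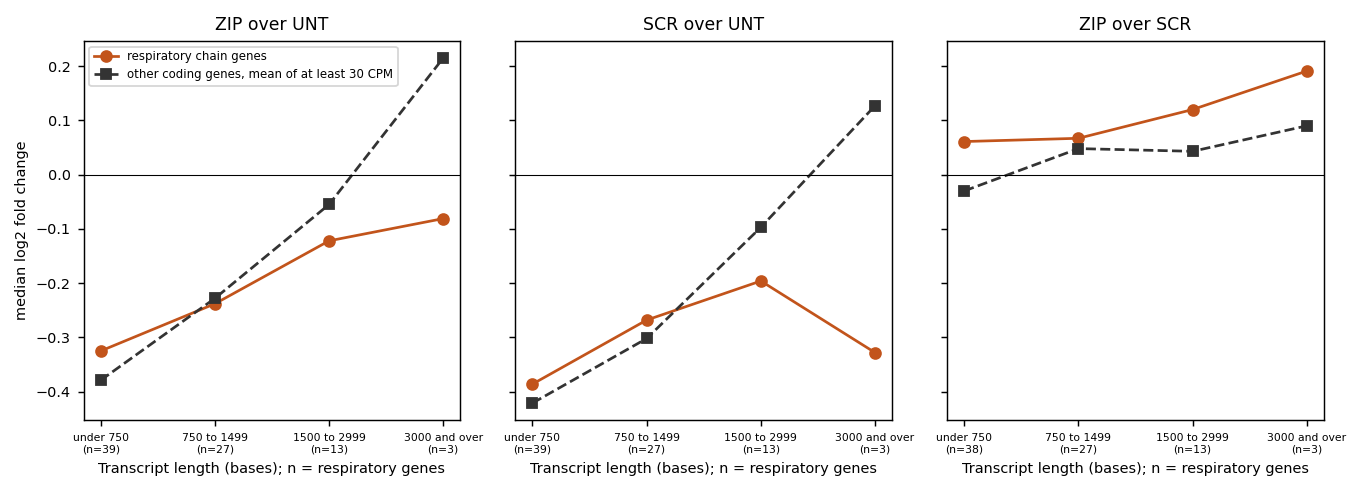
Median log2 fold change (vertical axis) by transcript length class in bases (horizontal axis) for respiratory chain genes (circles, solid) and other coding genes with a mean of at least 30 CPM (squares, dashed), for ZIP over UNT, SCR over UNT and ZIP over SCR. In both panels against UNT the short classes lie below 0 for both kinds of gene, at -0.33 and -0.38 (ZIP) and -0.39 and -0.42 (SCR) under 750 bases.

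ZIP against SCR moved the genes both ways and by small amounts. Of 81 genes tested over those 4 libraries, 41 rose and 23 fell (edgeR quasi-likelihood test, adjusted over 14643 genes), where 32.2% of all genes tested rose and 33.2% fell. Most genes with a high level changed in this contrast: of genes with a mean of at least 30 CPM 47.1% rose and 32.4% fell, beside 40 and 22 of the 78 respiratory genes at that level. The median log2 fold change was 0.11, with a range of -0.92 to 0.54, and the median of all genes tested was 0.00. Scaling by library totals alone gave 31 higher and 30 lower, with the all-gene median at -0.06. A change of at least 1.5-fold was reached by 0 genes upward and by 1, NDUFA4L2, downward, where 8.94% and 16.6% of all genes tested did so. Among the 6201 genes with a mean of at least 30 CPM, 390 rose and 430 fell by that much, beside 0 of the 78 respiratory genes.

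**Figure D2:**
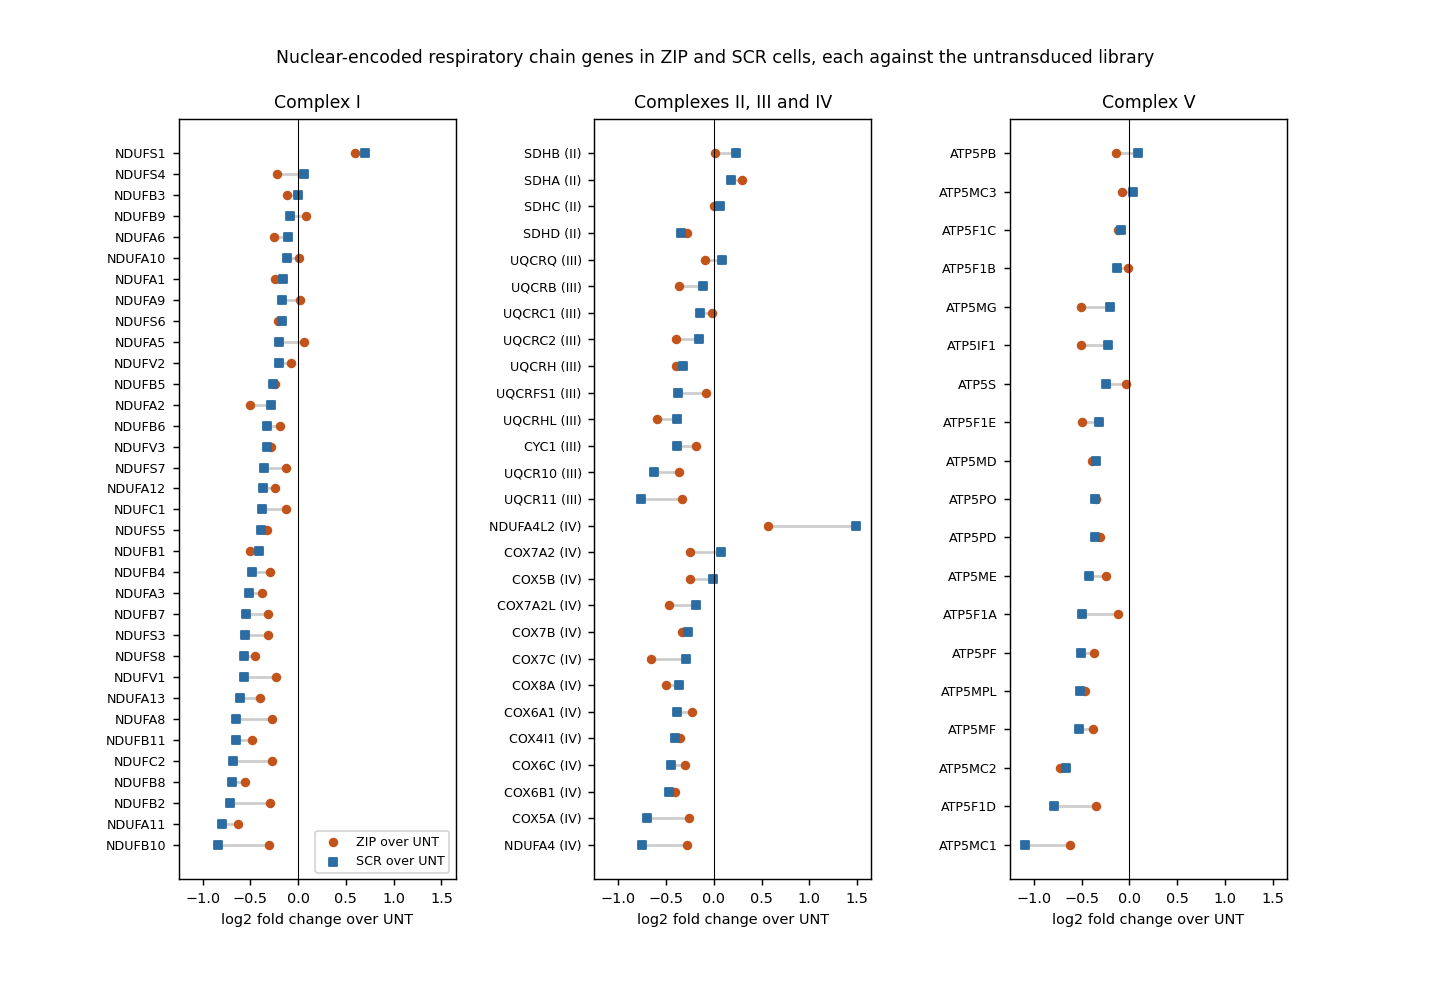
Log2 fold change over the untransduced library (horizontal axis) for each tested gene, by complex; circles are ZIP over UNT and squares are SCR over UNT, joined by a grey line. COX7A1, with 1 to 10 counts per library, and 1 complex I gene are left out. Most points lie left of 0, with NDUFS1 and NDUFA4L2 farthest to the right and ATP5MC1 farthest to the left.

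Several factors known to drive respiratory genes bind short motifs near their start sites, among them NRF1, the ETS factor GABP, YY1 and the oestrogen-related receptors (ERR). Promoters of 300 bases, 250 before to 50 after the start, were found in RefSeq (GRCh38.p14) for 66 of the 89 genes and searched on both strands. The ETS motif CCGGAAG was in 19 of 66 (28.8%) and in 10.3% of all 35116 promoters of that length, and the YY1 motif AAGATGGCG was in 7 (10.6%) and in 1.75%. The palindromic NRF1 motif, the run of 10 capitals in the SDHD stretch, was in 4 (6.06%) and in 1.24%, and the ERR motif TCAAGGTCA in 1 (1.52%) and in 0.353%. A match is a stretch of letters, not a bound site. The 35116 promoters were not matched to the respiratory genes by gene type or level, so the shares do not show a trait particular to these genes. Stretches of 5 promoters are shown, chosen after the search because they hold ETS or NRF1 letters and belong to genes that differed in direction: UQCR11, NDUFS3 and SDHD were lower in SCR cells than in UNT, while NDUFS1 and SDHB were higher. Each is 100 bases, 5′ to 3′ on the gene's strand, with motif letters in capitals (CTTCCGG is the ETS motif on the other strand).
UQCR11 (chr19:1605513-1605612, minus strand): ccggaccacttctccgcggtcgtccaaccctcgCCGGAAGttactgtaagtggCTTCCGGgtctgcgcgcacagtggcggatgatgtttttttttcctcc
NDUFS3 (chr11:47578924-47579023, plus strand): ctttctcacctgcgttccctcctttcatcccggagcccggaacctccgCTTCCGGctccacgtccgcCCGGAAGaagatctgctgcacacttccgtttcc
SDHD (chr11:112086723-112086822, plus strand): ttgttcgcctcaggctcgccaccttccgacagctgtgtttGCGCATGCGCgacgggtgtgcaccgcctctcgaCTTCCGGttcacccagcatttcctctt
NDUFS1 (chr2:206159545-206159644, minus strand): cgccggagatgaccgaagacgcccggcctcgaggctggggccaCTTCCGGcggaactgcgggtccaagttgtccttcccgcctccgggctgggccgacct
SDHB (chr1:17054108-17054207, minus strand): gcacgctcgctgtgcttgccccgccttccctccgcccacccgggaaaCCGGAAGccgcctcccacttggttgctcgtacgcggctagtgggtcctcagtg
By this choice the ETS letters stood in promoters of genes that rose and of genes that fell in SCR cells. Whether the letters go with direction was not tested. The counts of NDUFS3 are uncertain, since its exons overlap CELF1 on the opposite strand, which held 119.8% as many counts.

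Complex I, with 35 genes, has the most subunits of the 5. Its summed level was 3333 and 3242 CPM in ZIP and 3017 and 3026 CPM in SCR, against 3793 CPM in UNT. Of its 35 genes 1 rose and 27 fell in ZIP over UNT (median log2 fold change -0.26), 2 rose and 30 fell in SCR over UNT (median -0.37), and 23 rose and 6 fell in ZIP over SCR (median 0.14). The 4 modules of the complex had different counts in ZIP over SCR. In the N module, which oxidises NADH, 3 of 9 genes rose and 4 fell (median -0.04), and in the Q module, which reduces ubiquinone, 5 of 6 rose and 1 fell (median 0.22). In the membrane arm, where protons are pumped, 7 of 9 proximal and 8 of 11 distal genes rose and 0 and 1 fell (medians 0.18 and 0.17). In SCR over UNT the medians ran from -0.20 in the N module and -0.28 in the Q module to -0.52 in the proximal and -0.48 in the distal arm. Differences between modules were not tested. Of all genes with a mean of at least 30 CPM, 47.1% rose and 32.4% fell in ZIP over SCR. In SCR over UNT these shares were 36.6% and 45.0%, and in ZIP over UNT 39.4% and 37.9%. They stand beside the counts of the other complexes too.

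NDUFV1, which carries the flavin that accepts electrons from NADH, had 264 and 252 CPM in ZIP and 207 and 204 CPM in SCR, against 304 CPM in UNT. Both ZIP libraries stood between SCR and UNT with no overlap. The log2 fold changes were 0.33 ± 0.03 (SE) for ZIP over SCR (adjusted p = 4.6e-09, edgeR), -0.57 ± 0.04 in SCR over UNT and -0.24 ± 0.04 in ZIP over UNT. NDUFS1, the largest subunit and holder of several iron-sulfur clusters, went against most of the complex, with 142 and 144 CPM in ZIP and 155 and 152 CPM in SCR, against 94.7 CPM in UNT. The log2 fold change was 0.60 ± 0.04 in ZIP over UNT (adjusted p = 6.9e-12, edgeR) and 0.70 ± 0.04 in SCR over UNT. The small ZIP over SCR difference of -0.10 ± 0.03 (adjusted p = 0.0043, edgeR) was not called without SCR 1 (adjusted p = 0.059). Exons of NDUFS1 overlap EEF1B2 on the opposite strand, a gene with more counts in total, and use of strand in counting was not given in the sources used here. NDUFS4, an N-module subunit whose loss causes Leigh syndrome, fell in ZIP over SCR, with 42.1 and 41.7 CPM in ZIP and 51.5 and 50.8 CPM in SCR, against 48.9 CPM in UNT (log2 fold change -0.29 ± 0.04, adjusted p = 9.6e-06, edgeR). NDUFS4 was called higher in SCR over UNT with library totals (0.18, adjusted p = 0.0067, edgeR).

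The subunits of the membrane arm gave the largest differences of complex I. NDUFB10, a distal-arm subunit, had 158 and 149 CPM in ZIP and 106 CPM in each SCR library, against 189 CPM in UNT. It fell in SCR over UNT, at -0.84 ± 0.04 on the log2 scale, and rose in ZIP over SCR by 0.54 ± 0.03 (adjusted p = 5.6e-12, edgeR), while ZIP stayed below UNT at -0.30 ± 0.04. NDUFB2, of the same arm, followed with 74.5 and 72.2 CPM in ZIP and 57.9 and 51.5 CPM in SCR, against 89.7 CPM in UNT, and rose in ZIP over SCR by 0.43 ± 0.05. In NDUFB10 and NDUFB2 no library of one group reached the range of another. Exons of NDUFB2 overlap BRAF and exons of NDUFB8 overlap HIF1AN, on the opposite strand. These held 31.6% and 84.1% as many counts as NDUFB2 and NDUFB8, whose counts are thus uncertain. NDUFA11, a proximal-arm subunit, had 33.9 and 32.8 CPM in ZIP and 31.0 and 28.2 CPM in SCR, against 51.6 CPM in UNT, and fell in both transduced groups, at -0.63 ± 0.06 in ZIP and -0.80 ± 0.07 in SCR over UNT. NDUFB8 likewise had 49.0 and 45.2 CPM in ZIP and 43.2 and 42.9 CPM in SCR, against 69.5 CPM in UNT. Their small rises in ZIP over SCR (0.18 and 0.14 on the log2 scale) were lost in part of the alternatives: without ZIP 1 the adjusted p was 0.097 for NDUFA11 and 0.29 for NDUFB8, without SCR 2 it was 0.2 and 0.062, and with library totals 0.088 and 0.18 (edgeR).

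**Figure D3:**
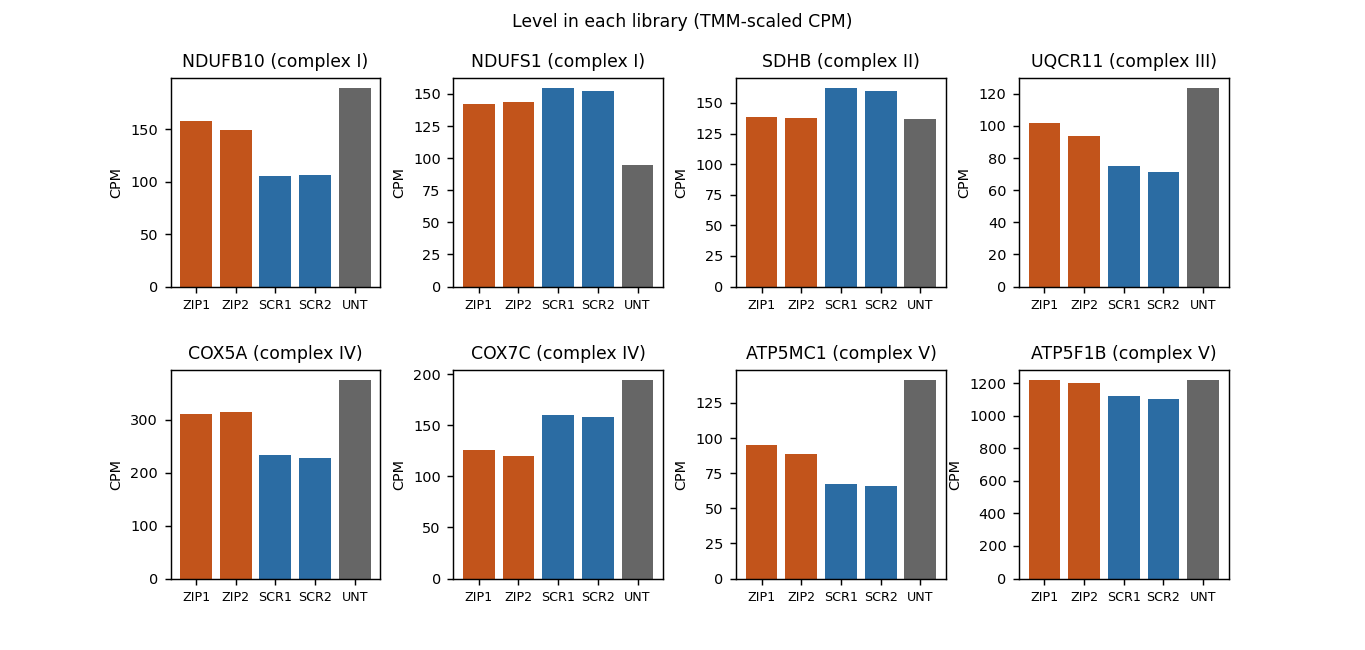
Level in CPM (vertical axes, from 0) of 8 genes in the libraries ZIP 1, ZIP 2, SCR 1, SCR 2 and UNT (1 bar per library, no error bar). NDUFB10, UQCR11, COX5A and ATP5MC1 are lowest in SCR, COX7C is lowest in ZIP, NDUFS1 is lowest in UNT at 94.7 CPM, SDHB is highest in SCR, and ATP5F1B lies between 1103 and 1220 CPM in every library.

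In complex II, which shuttles electrons without pumping protons, 1 of 4 genes rose and 1 fell in ZIP over UNT, 2 rose and 1 fell in SCR over UNT, and 1 rose and 1 fell in ZIP over SCR. It summed to 475 CPM in each ZIP library and to 495 and 480 CPM in SCR, against 474 CPM in UNT. SDHB, the iron-sulfur subunit, had 139 and 138 CPM in ZIP and 162 and 160 CPM in SCR, against 137 CPM in UNT. It rose in SCR over UNT by 0.24 ± 0.04 (adjusted p = 5.3e-06, edgeR), fell in ZIP over SCR (-0.22 ± 0.03, adjusted p = 7.2e-07), and ZIP and UNT were not called different (0.01 ± 0.04, adjusted p = 0.78). SDHA, the flavoprotein that oxidises succinate, had 127 and 128 CPM in ZIP and 120 and 116 CPM in SCR, against 104 CPM in UNT, and rose by 0.30 ± 0.04 in ZIP and 0.18 ± 0.04 in SCR over UNT. Its counts are uncertain, since 3 annotated pseudogenes held 18% as many counts, and its rise in ZIP over SCR (0.12 ± 0.03) was not called with library totals (adjusted p = 0.096, edgeR). SDHD, a membrane anchor, was the member that fell, with 113 and 114 CPM in ZIP and 113 and 104 CPM in SCR, against 137 CPM in UNT (-0.28 ± 0.04 in ZIP and -0.34 ± 0.04 in SCR over UNT). SDHD was called higher in ZIP over SCR only without SCR 1 (0.13, adjusted p = 0.006, edgeR), among the settings run. Its exons overlap TIMM8B on the opposite strand, which held 37.6% as many counts. SDHC, the other anchor, lay between 94.6 and 100.2 CPM in every library and was called in no comparison.

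In complex III 0 of 10 genes rose and 7 fell in ZIP over UNT, 0 rose and 8 fell in SCR over UNT, and 5 rose and 4 fell in ZIP over SCR. It summed to 1415 and 1380 CPM in ZIP and 1387 and 1389 CPM in SCR, against 1678 CPM in UNT. Both nuclear-encoded electron carriers rose in ZIP over SCR. CYC1, cytochrome c1, had 230 and 227 CPM in ZIP and 201 and 197 CPM in SCR, against 260 CPM in UNT (ZIP over SCR 0.20 ± 0.03, adjusted p = 2.2e-06, edgeR). UQCRFS1, the Rieske iron-sulfur protein, had 104 and 106 CPM in ZIP and 86.7 and 84.6 CPM in SCR, against 111 CPM in UNT, a rise of 0.29 ± 0.03 in ZIP over SCR. In both genes all ZIP values lay between those of SCR and UNT. The small subunit UQCR10 had 85.8 and 79.3 CPM in ZIP and 69.2 and 69.0 CPM in SCR, against 106 CPM in UNT, in the same order. UQCR11, another, had 102 and 93.9 CPM in ZIP and 75.0 and 71.3 CPM in SCR, against 124 CPM in UNT, and its log2 fold change was 0.42 ± 0.04 in ZIP over SCR and -0.76 ± 0.05 in SCR over UNT (adjusted p = 7.6e-09 and 9.2e-13, edgeR).

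The core protein UQCRC2 and the ubiquinone-binding subunit UQCRB went the other way between the vectors. UQCRC2 had 232 and 225 CPM in ZIP and 273 and 270 CPM in SCR, against 301 CPM in UNT, a log2 fold change of -0.25 ± 0.03 in ZIP over SCR (adjusted p = 1.7e-07, edgeR). UQCRB had 173 and 177 CPM in ZIP and 197 and 220 CPM in SCR, against 226 CPM in UNT, at -0.26 ± 0.04 in ZIP over SCR. In both, ZIP was lowest and UNT highest. Their smaller falls in SCR over UNT (-0.15 and -0.11) were not called with library totals (adjusted p = 0.31 and 0.95), and that of UQCRB also not without SCR 1 (0.49) or ZIP 1 (0.096). The hinge protein UQCRH had 198 and 196 CPM in ZIP and 208 and 205 CPM in SCR, against 259 CPM in UNT, so that it fell in both transduced groups (-0.39 ± 0.03 in ZIP and -0.33 ± 0.03 in SCR over UNT). Its call in ZIP over SCR (-0.07, adjusted p = 0.04, edgeR) was lost without any 1 of the 4 libraries (adjusted p 0.059 to 0.24). UQCRHL, an intronless copy of it, held 46 and 37 counts in ZIP and 46 and 44 counts in SCR, against 55 counts in UNT. Its fall in ZIP over UNT (-0.60 ± 0.25, adjusted p = 0.046, edgeR) was lost without any 1 of the 4 transduced libraries (0.059 to 0.11), and reads of so close a copy may be split between both genes, which makes it uncertain. Per kilobase of exon the mean level was 353 CPM for UQCRH and 0.812 CPM for UQCRHL.

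Complex IV had 13 genes tested in ZIP over SCR, of which 4 rose and 6 fell, and 14 tested against UNT, of which 0 rose and 12 fell in ZIP and 1 rose and 10 fell in SCR. It summed to 1888 and 1836 CPM in ZIP and 1865 and 1884 CPM in SCR, against 2377 CPM in UNT. The 2 largest rises in ZIP over SCR were COX5A, a matrix-side subunit, and NDUFA4. COX5A had 311 and 315 CPM in ZIP and 233 and 227 CPM in SCR, against 375 CPM in UNT, with log2 fold changes of 0.44 ± 0.03 in ZIP over SCR (adjusted p = 1.3e-11, edgeR), -0.70 ± 0.03 in SCR over UNT and -0.26 ± 0.03 in ZIP over UNT. NDUFA4 had 129 and 119 CPM in ZIP and 90.5 and 89.6 CPM in SCR, against 152 CPM in UNT, a rise of 0.47 ± 0.04 in ZIP over SCR. In both, ZIP stood between the other groups without overlap.

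The small membrane subunits COX7C and COX7A2 were lower in ZIP than in SCR. COX7C had 126 and 120 CPM in ZIP and 160 and 159 CPM in SCR, against 195 CPM in UNT, and fell in ZIP over SCR (-0.37 ± 0.03, adjusted p = 1.4e-09, edgeR), in SCR over UNT (-0.29 ± 0.04) and in ZIP over UNT (-0.66 ± 0.04). COX7A2 had 156 and 153 CPM in ZIP and 189 and 198 CPM in SCR, against 184 CPM in UNT, so that it fell in ZIP over SCR (-0.33 ± 0.03) while SCR over UNT was not called (0.07, adjusted p = 0.088, edgeR). That difference was called with library totals (0.18, adjusted p = 0.00013, edgeR) and without SCR 1 (0.11, adjusted p = 0.025). COX7A2L, the supercomplex factor, had 122 and 123 CPM in ZIP and 153 and 145 CPM in SCR, against 169 CPM in UNT. It fell in all 3 comparisons, though its fall in SCR over UNT (-0.18) was not called with library totals (adjusted p = 0.1, edgeR). COX8A had 130 and 122 CPM in ZIP and 133 and 143 CPM in SCR, against 178 CPM in UNT. It fell against UNT in both groups (-0.50 ± 0.04 in ZIP and -0.36 ± 0.04 in SCR), and its fall in ZIP over SCR (-0.14, adjusted p = 0.0029, edgeR) was not called without ZIP 2 (0.085) or SCR 2 (0.084).

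Of the isoform pairs of complex IV, the ubiquitous form carried nearly all counts. COX4I1, the regulatory subunit that binds ATP, had 201 and 191 CPM in ZIP and 188 and 191 CPM in SCR, against 251 CPM in UNT, while its hypoxia and lung form COX4I2 had no count in any library. COX6A1 had 54.6 to 72.3 CPM and COX6B1 143 to 205 CPM over the 5 libraries, while the heart and muscle form COX6A2 had 1 count in all and the testis form COX6B2 0 to 5 counts per library. COX7B had 141 to 181 CPM, and COX7B2 had no count. The heart and muscle form COX7A1 had 1 to 10 counts and the testis form COX8C 0 to 2 counts per library. COX4I1, COX6B1 and COX7B fell in both transduced groups over UNT and were not called in ZIP over SCR (0.05, 0.06 and -0.06). Other settings called them in edgeR: COX4I1 without ZIP 2 (0.10, adjusted p = 0.021), COX6B1 without SCR 2 (0.11, 0.014) or ZIP 2 (0.10, 0.043), and COX7B with library totals (-0.12, 0.0014) or without ZIP 1 (-0.10, 0.028). COX6A1 rose in ZIP over SCR by 0.15 ± 0.04 (adjusted p = 0.0018, edgeR). NDUFA4L2, the hypoxia-induced paralogue of NDUFA4, had 50 and 35 counts in ZIP and 86 and 64 counts in SCR, against 25 counts in UNT. It rose in SCR over UNT by 1.49 ± 0.29 and fell in ZIP over SCR (-0.92 ± 0.21, adjusted p = 0.00062, edgeR). Its exons overlap SHMT2 on the opposite strand, which had 5764 to 8937 counts per library, so that its counts are uncertain. Per kilobase of exon the mean level was 54.5 CPM for NDUFA4 and 1.52 CPM for NDUFA4L2.

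**Figure D4:**
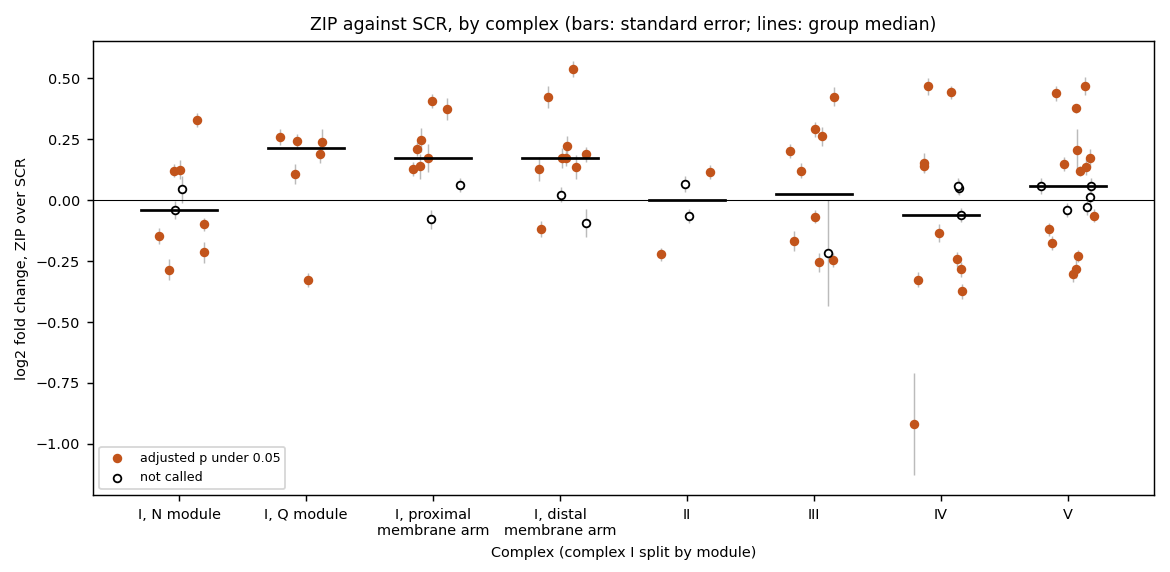
Log2 fold change in ZIP over SCR (vertical axis) of each tested gene with its standard error, by complex, with complex I split by module. Filled points passed an adjusted p under 0.05, open points did not, and black lines are medians, which run from -0.06 in complex IV to 0.22 in the Q module of complex I.

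Complex V had a summed level of 5052 and 4971 CPM in ZIP and 4681 and 4659 CPM in SCR, against 5846 CPM in UNT. ATP5F1A and ATP5F1B together held 2542 and 2513 CPM of it in ZIP and 2150 and 2106 CPM in SCR, against 2654 CPM in UNT. The other 19 genes summed to 2511 and 2458 CPM in ZIP and 2531 and 2552 CPM in SCR, against 3193 CPM in UNT, so that the ZIP sums stood above the SCR sums through that pair. Of 19 genes tested 0 rose and 17 fell in ZIP over UNT, 1 rose and 15 fell in SCR over UNT, and 8 rose and 6 fell in ZIP over SCR. ATP5F1A and ATP5F1B, the α and β subunits of the catalytic F1 head, are present in equal numbers in the enzyme, and their fold changes differed in size. ATP5F1A had 1321 and 1314 CPM in ZIP and 1026 and 1003 CPM in SCR, against 1434 CPM in UNT, with log2 fold changes of 0.38 ± 0.02 in ZIP over SCR (adjusted p = 5.8e-13, edgeR) and -0.50 ± 0.02 in SCR over UNT. ATP5F1B, where ATP is formed, had 1220 and 1199 CPM in ZIP and 1124 and 1103 CPM in SCR, against 1220 CPM in UNT, with 0.12 ± 0.02 in ZIP over SCR and -0.13 ± 0.02 in SCR over UNT. The fall of ATP5F1B in SCR was not called with library totals (-0.02, adjusted p = 0.41, edgeR). ATP5F1D, the δ subunit of the central stalk, had 146 and 138 CPM in ZIP and 103 and 107 CPM in SCR, against 181 CPM in UNT, and rose in ZIP over SCR by 0.44 ± 0.03.

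Subunit c, which forms the rotating ring, is encoded by 3 genes whose mature proteins are identical, and the 3 differed. ATP5MC1 had 94.8 and 88.7 CPM in ZIP and 67.1 and 65.9 CPM in SCR, against 141 CPM in UNT. Its fall in SCR over UNT (-1.09 ± 0.04, adjusted p = 2.6e-16, edgeR) was the largest of all the tested respiratory genes, and it rose in ZIP over SCR by 0.47 ± 0.04. ATP5MC2 had 279 and 272 CPM in ZIP and 287 and 290 CPM in SCR, against 456 CPM in UNT, and fell almost equally in both groups (-0.72 ± 0.03 in ZIP and -0.66 ± 0.03 in SCR over UNT). ATP5MC3 had 342 and 339 CPM in ZIP and 368 and 372 CPM in SCR, against 360 CPM in UNT, with no called difference between SCR and UNT (0.04 ± 0.03, adjusted p = 0.26, edgeR) and a fall in ZIP over SCR (-0.12 ± 0.03). With library totals SCR over UNT was called higher (0.15, adjusted p = 0.00018, edgeR). Thus SCR cells were lowest for ATP5MC1, UNT cells stood far above both for ATP5MC2, and the levels of ATP5MC3 were close in all 5 libraries. The ZIP over SCR call of ATP5MC2 (-0.06, adjusted p = 0.046) was lost without any 1 of SCR 1, SCR 2 and ZIP 2 (0.084, 0.15 and 0.37), and the ZIP over UNT call of ATP5MC3 (-0.08, adjusted p = 0.03) with library totals (0.44) and without SCR 1 (0.053), SCR 2 (0.055) or ZIP 2 (0.14).

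In ZIP over SCR, 1 of the 4 peripheral stalk genes rose and 1 fell, and 2 of the 5 small membrane subunit genes rose and 1 fell. ATP5PB, the b subunit of the peripheral stalk, had 345 and 344 CPM in ZIP and 405 and 403 CPM in SCR, against 379 CPM in UNT, and was the complex V gene that rose in SCR over UNT (0.09 ± 0.03, adjusted p = 0.012, edgeR). ATP5MG, the g subunit, had 137 and 131 CPM in ZIP and 164 and 167 CPM in SCR, against 191 CPM in UNT, a log2 fold change of -0.30 ± 0.03 in ZIP over SCR. The inhibitor ATP5IF1, which blocks the enzyme from running backwards, had 64.4 and 61.0 CPM in ZIP and 76.3 and 76.6 CPM in SCR, against 89.3 CPM in UNT (-0.28 ± 0.04 in ZIP over SCR, adjusted p = 1.2e-06, edgeR). For ATP5MG and ATP5IF1, ZIP was lowest and UNT highest with no overlap. Of the untested genes, the readthrough ATP5MF-PTCD1 had no count and the copy ATP5MGL 0 to 8 counts per library.

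The partners of these genes on mitochondrial DNA showed the same order of groups in summed CPM. As unscaled shares of all counts they made up 5.53% and 5.57% in ZIP, 3.64% and 3.76% in SCR and 7.25% in UNT. The 13 mitochondrially encoded subunits summed to 55800 and 56220 CPM in ZIP and 35160 and 36540 CPM in SCR, against 75810 CPM in UNT, and the ratio to the nuclear sum was 4.59 and 4.72 in ZIP and 3.07 and 3.20 in SCR, against 5.35 in UNT. All 13 rose in ZIP over SCR (median log2 fold change 0.67) and fell in SCR over UNT (median -1.02), and 1 rose and 11 fell in ZIP over UNT (median -0.31). Over all genes tested, 32.2% rose in ZIP over SCR and 32.2% fell in SCR over UNT, while 28.5% rose and 29.7% fell in ZIP over UNT. At a mean of at least 30 CPM these shares were 47.1%, 45.0%, 39.4% and 37.9%.

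**Figure D5:**
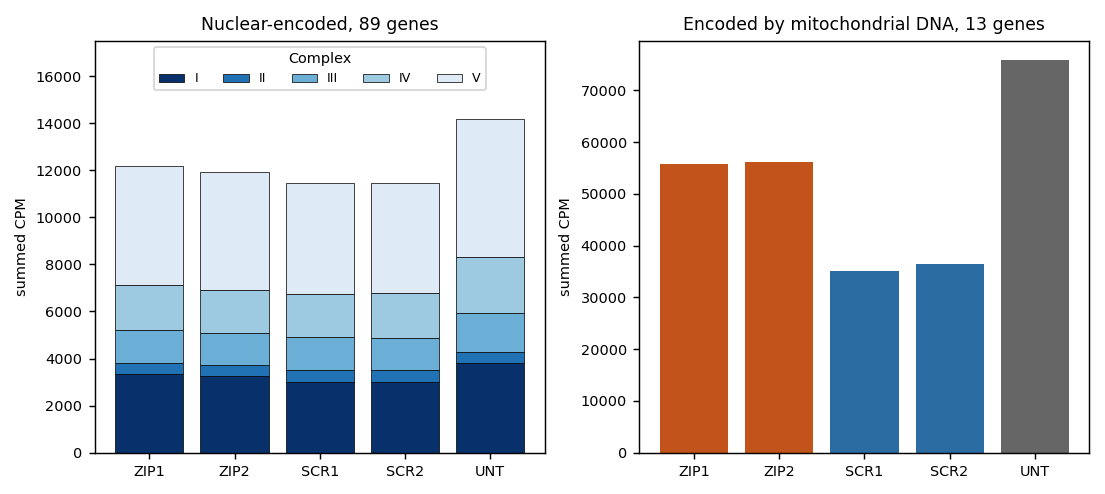
Summed CPM (vertical axes, from 0, different scales) in the libraries ZIP 1, ZIP 2, SCR 1, SCR 2 and UNT: left, the 89 nuclear genes stacked by complex; right, the 13 mitochondrially encoded genes. On both sides SCR is lowest and UNT highest, with nuclear sums of 11440 to 14170 CPM and mitochondrial sums of 35160 to 75810 CPM. As unscaled shares of all counts the nuclear genes made up 1.2% and 1.18% in ZIP and 1.18% in each SCR library.

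Genes that build or feed the chain were read from lists. Of all genes tested, 32.2% rose and 33.2% fell in ZIP over SCR, and 32.7% and 32.2% in SCR over UNT. In ZIP over UNT 28.5% rose and 29.7% fell. At a mean of at least 30 CPM these shares were 47.1% and 32.4%, 36.6% and 45.0%, and 39.4% and 37.9%. No list was tested as a set, here or below. Of 18 complex I assembly factors 13 rose and 0 fell in ZIP over SCR, 0 rose and 14 fell in SCR over UNT, and 1 rose and 11 fell in ZIP over UNT. NUBPL, which delivers iron-sulfur clusters to complex I, had 23.5 and 26.5 CPM in ZIP and 14.0 and 14.7 CPM in SCR, against 26.7 CPM in UNT, and rose in ZIP over SCR by 0.80 ± 0.07 (adjusted p = 7.2e-09, edgeR). Of 25 complex IV assembly factors 14 rose and 4 fell in ZIP over SCR, 3 rose and 18 fell in SCR over UNT, and 3 rose and 16 fell in ZIP over UNT. SCO2, a copper chaperone, had 34.6 and 37.3 CPM in ZIP and 24.3 and 22.8 CPM in SCR, against 44.1 CPM in UNT, and COX11, another, rose in ZIP over SCR by 0.60 ± 0.05. In ZIP over SCR, 3 of 6 complex III and 3 of 5 complex V assembly factors rose and 0 fell, and of 4 complex II factors 1 rose and 1 fell. In SCR over UNT 5 complex III, 3 complex V and 3 complex II factors fell and 0 rose. In ZIP over UNT the same numbers fell in each list, and 1 complex III factor rose.

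Of 18 genes of the tricarboxylic acid cycle and pyruvate dehydrogenase 10 rose and 3 fell in ZIP over SCR, 5 rose and 10 fell in SCR over UNT, and 6 rose and 6 fell in ZIP over UNT. MDH2, malate dehydrogenase, had 349 and 346 CPM in ZIP and 264 and 267 CPM in SCR, against 391 CPM in UNT. OGDH, of the oxoglutarate dehydrogenase complex, stood the other way, with 85.5 and 83.2 CPM in ZIP and 105 and 101 CPM in SCR, against 49.9 CPM in UNT. Of 19 genes for mobile carriers and ATP export 10 rose and 3 fell in ZIP over SCR, 2 rose and 13 fell in SCR over UNT, and 3 rose and 10 fell in ZIP over UNT. SLC25A3, the phosphate carrier that supplies complex V, had 594 and 587 CPM in ZIP and 485 and 477 CPM in SCR, against 707 CPM in UNT.

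Of 13 genes that transcribe or copy mitochondrial DNA 10 rose and 1 fell in ZIP over SCR, 0 rose and 11 fell in SCR over UNT, and 3 rose and 8 fell in ZIP over UNT. POLRMT, the mitochondrial RNA polymerase, rose in ZIP over SCR by 0.81 ± 0.03 (adjusted p = 9.6e-15, edgeR). Of 12 listed regulators 10 were tested, of which 5 rose and 3 fell in ZIP over SCR, 3 rose and 3 fell in SCR over UNT, and 5 rose and 2 fell in ZIP over UNT. The coactivator PPRC1 had 161 and 163 CPM in ZIP and 103 and 106 CPM in SCR, against 135 CPM in UNT. MYC had 1223 and 1214 CPM in ZIP and 926 and 933 CPM in SCR, against 2033 CPM in UNT. PPARGC1B, also on the list, had another order, with 67.5 and 67.7 CPM in ZIP and 48.6 and 51.2 CPM in SCR, against 40.5 CPM in UNT. YY1, named here for its motif, had 250 CPM in each ZIP library and 206 and 204 CPM in SCR, against 240 CPM in UNT. NRF1, named for the same reason, had 27.0 and 25.1 CPM in ZIP and 29.5 and 28.6 CPM in SCR, against 26.3 CPM in UNT. For GABP, GABPA had 59.7 and 62.0 CPM in ZIP and 57.0 and 53.5 CPM in SCR, against 55.4 CPM in UNT. GABPB1 had 33.7 and 34.1 CPM in ZIP and 36.5 and 35.5 CPM in SCR, against 39.7 CPM in UNT. Of the ERR genes listed, ESRRA had 45.5 to 51.6 CPM over the 5 libraries, and ESRRG was too low to test.

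Beside these groups, all 5 promyelocyte markers rose in ZIP over SCR and fell in SCR over UNT, and 2 rose and 2 fell in ZIP over UNT. Of 7 monocyte markers 1 (LYZ, by 0.32 on the log2 scale) rose and 6 fell in ZIP over SCR, 7 rose in SCR over UNT, and 5 rose and 0 fell in ZIP over UNT. Of the lymphoid markers 2 were tested and fell in ZIP over SCR. Against UNT 4 were tested, of which 2 rose and 2 fell in SCR, and 0 rose and 2 fell in ZIP. The 1 erythroid marker tested was called in no comparison. Over all genes tested, 32.2% rose and 33.2% fell in ZIP over SCR. The shares were 32.7% and 32.2% in SCR over UNT, and 28.5% and 29.7% in ZIP over UNT. A call in these contrasts therefore does not set the markers apart from other genes. Sums of the promyelocyte and monocyte markers are given above. The part of the markers in these results was not tested.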

How the data were processed

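Total RNA of HL60 cells was made into 5 libraries with a small RNA kit and sequenced on an Illumina instrument, per the labels' protocols. The values deposited by the authors are raw counts per gene without normalization, which was read from the values (whole numbers with different totals). Per the submitters' processing notes, Bowtie2 and featureCounts were used, whereas the design text names TopHat, Cufflinks and HTSeq. Which made the counts, the genome build, the annotation and whether strand was used were not given in the sources used here, so overlapping genes are uncertain: exons of 40 of the 89 genes overlap another gene, for 24 of them on the opposite strand only.

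Gene IDs were matched to GENCODE release 29. Columns were matched to libraries by the description label. Genes were filtered with filterByExpr (minimum count 10, total 15), scaled by the trimmed mean of M values and tested with edgeR 4.0.16 (R 4.3.3, limma 3.58.1) by the quasi-likelihood test with Benjamini-Hochberg adjustment over all genes tested. ZIP over SCR used 4 libraries and both comparisons with UNT used all 5, each with 2 residual degrees of freedom. The SE is the size of the log2 fold change divided by the square root of F. CPM used the scaled totals, per kilobase of merged exons where stated. Transcript length is the median of a gene's coding transcripts. The fit was also run on simulated data in which few genes changed, in equal numbers up and down. Most genes tested were called in the real data, so that run does not test the scaling there.

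Genes were named by rule: per comparison and complex, the 2 largest rises and 2 largest falls among called genes of at least 1 CPM whose groups did not overlap, the catalytic subunits, the isoform sets and ATP5IF1, and up to 2 genes per direction of each list. SDHC, YY1, NRF1, GABPA, ESRRA, ESRRG and the NDUFS3 promoter are outside it and were chosen after their values were seen. The genes and lists were chosen with earlier results of these data known. Alternatives were DESeq2 1.42.0, its size factors, library totals, no filter, all 5 libraries, a replicate block and leaving out each library. The values of 1 complex I gene are not reported here, though it is in the counts.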

Additional observations from a re-analysis of the deposited data

How the results depend on the processing

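Each group has 1 or 2 libraries, so the spread is poorly known and the single UNT library cannot be left out. Leaving out 1 library at a time gave a median log2 fold change of 0.07 to 0.12 in ZIP over SCR (33 to 45 genes higher, 20 to 24 lower, 0 to 1 higher by 1.5-fold), -0.36 to -0.34 in SCR over UNT (6 to 7 higher, 59 to 67 lower) and -0.30 to -0.25 in ZIP over UNT (2 to 3 higher, 59 to 64 lower, 3 to 5 lower by 1.5-fold, the 3 without ZIP 2). The 1 gene above 1.5-fold in ZIP over SCR appeared without ZIP 2. Library totals moved the median of all genes to 0.13 in SCR over UNT, 0.05 in ZIP over UNT and -0.06 in ZIP over SCR. With them, the respiratory medians were -0.25, -0.23 and 0.048. In SCR over UNT 13 genes then rose and 53 fell, 8 of them by at least 1.5-fold, and in ZIP over UNT 4 rose and 59 fell, 2 of them by at least 1.5-fold. With all 5 libraries in the fit the ZIP over SCR median was 0.086. DESeq2 called 34 higher and 19 lower in ZIP over SCR, 6 and 58 in SCR over UNT, and 2 and 56 in ZIP over UNT. Directions turned for uncalled differences: COX4I1 (-0.007) and COX6B1 (-0.001) in ZIP over SCR with library totals, and ATP5F1B in ZIP over UNT with library totals (0.039) and without ZIP 2 (0.01; the range over left-out libraries was -0.024 to 0.01); the cause was not tested. Of 1026 values of single genes under these settings, 964 kept direction and call, 48 lost the call, 10 gained one and 4 turned. Per kilobase of the median coding transcript instead of merged exons, an alternative chosen after seeing the data, mean levels were 170, 391 and 423 CPM for ATP5MC1, ATP5MC2 and ATP5MC3, against 134, 141 and 62.8 CPM, so that no order of the 3 per length is given. Replicate differences in SCR and ZIP were nearly uncorrelated across genes (0.02), which cannot show whether libraries of the same number were handled together. A replicate block left 41 higher and 23 lower with a median of 0.11. Depth limits the isoforms with 0 to 10 counts per library. COX4I2 and COX7B2, with no count, were not detectable at this depth. COX7A1 was tested only against UNT and was not called, and the others were too low to test.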
